A study of Homo sapiens with 16 samples.

Results

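Apoptosis can be started from outside a cell when a ligand of the tumor necrosis factor family binds a death receptor. TRAIL, the product of TNFSF10, binds DR4 (TNFRSF10A) and DR5 (TNFRSF10B), while Fas ligand binds FAS, and the bound receptor gathers the adaptor FADD and caspase-8. CFLAR encodes cFLIP, a relative of caspase-8 that competes with it in this complex and sets whether the caspase is activated. Caspase-1 and caspase-4 belong to the inflammatory branch, in which inflammasomes or intracellular bacterial lipopolysaccharide lead to the cutting of gasdermin D and to pyroptosis. Many of these genes are known as targets of interferon, NF-kB or p53, and drugs that damage DNA are known to raise some of the receptors.

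The genes described are FAS, TNFRSF10A, TNFRSF10B, TNFSF10, CFLAR, CASP1, CASP4 and CASP8, which were taken by symbol, 8 of the 59428 genes of the count table. RNA was measured by QuantSeq, a poly(A)-primed method that reads the 3' end of each transcript, in 16 libraries of 2 serous ovarian carcinoma cell lines, OVCAR3 with wild-type BRCA1 and UWB1.289 with mutated BRCA1. OVCAR3 received 7.5 µM and UWB1.289 3.5 µM of the PARP inhibitor olaparib, the dose determined for each line as its IC50, or the solvent DMSO, and all cultures were harvested at 96 h with 4 replicates per group. OVCAR3 was grown in RPMI1640 with 20% FBS and bovine insulin, and UWB1.289 in a mixture of MEGM and RPMI1640 with 3% FBS. Each BRCA1 status is represented by 1 line, so BRCA1 status, line, dose and medium cannot be told apart, and in bulk RNA fewer cells with a transcript and less RNA per cell cannot be told apart either. The series description has the treatment carried out 4 times, and does not say whether the repeats shared a batch of cells.

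Total counts ranged from 5599571 to 7730228 per library. The 7 serous carcinoma markers checked were above 3 counts in every OVCAR3 library, as were 6 of 7 in every UWB1.289 library, where WT1 stood at 0 counts with DMSO. Their summed level was lower with olaparib, at 2465 to 2756 CPM (TMM-normalized read counts scaled to a common library size) against 3943 to 4214 in OVCAR3 and at 5768 to 7102 against 7351 to 7966 in UWB1.289. KRT18 weighed most in these sums, with means falling from 1791 to 881 CPM in OVCAR3 and from 4194 to 3171 CPM in UWB1.289. In OVCAR3 only KRT7 had a higher mean with olaparib, at 393 against 345 CPM. In UWB1.289 KRT7 and KRT8 also fell, while PAX8 (287 to 299 CPM), EPCAM (546 to 570 CPM) and MUC16 (36.4 to 58.4 CPM) rose. The 5 leukocyte markers summed to at most 1.48 CPM in OVCAR3, and to 7.64 to 10.7 CPM with DMSO and 13.6 to 18.1 CPM with olaparib in UWB1.289, where CD3E, CSF1R and MS4A1 had no count. The 4 fibroblast markers summed to 21.7 to 30.6 and 30.6 to 39.2 CPM with DMSO and olaparib in OVCAR3, and to 43.8 to 60.8 and 25.1 to 31.6 CPM in UWB1.289, and the 3 endothelial markers to at most 10.03 CPM in any library. The part of these shifts in the results was not tested. One library stood apart, OVCAR3 with olaparib, replicate 4, whose log2 levels differed from the mean of the rest of its group with an SD of 0.324 over 7488 genes, against 0.172 to 0.274 in the other 15 libraries. Results of the 8 genes within OVCAR3 that rest on it are given with and without it.

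By the annotation of GENCODE release 44 on hg38, FAS (ENSG00000026103) spans 88953813 to 89029605 of chromosome 10 on the forward strand and TNFSF10 (ENSG00000121858) spans 172505508 to 172523475 of chromosome 3 on the reverse strand. CFLAR (ENSG00000003402), from 201116154 to 201176687, and CASP8 (ENSG00000064012), from 201233443 to 201361836, lie near each other on the forward strand of chromosome 2. CASP4 (ENSG00000196954), from 104942866 to 104969366, and CASP1 (ENSG00000137752), from 105025397 to 105035250, are close neighbours on the reverse strand of chromosome 11. TNFRSF10A and TNFRSF10B have the identifiers ENSG00000104689 and ENSG00000120889. The span of FAS overlaps STAMBPL1 on the same strand and ACTA2 on the other, which held 404 and 224 counts over all libraries, and TNFRSF10B overlaps RHOBTB2 on the other strand, with 2750 counts. CFLAR overlaps RNU7-45P on the same strand, with 77 counts, and CFLAR-AS1 and RPL38P5 on the other, with 29 and 1. CASP8 overlaps FLACC1 on the other strand, with 88 counts. How strand and overlapping genes were treated in counting is not stated, so the values of these genes may include or lose reads at the overlaps.

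RefSeq start-site windows (GRCh38.p14, 250 bases before to 50 after each start) were at hand for 5 of the 8 genes, FAS, TNFSF10, CFLAR, CASP4 and CASP8, 12 windows in all. No window was given for TNFRSF10A, TNFRSF10B or CASP1. They were searched on both strands for the core of the interferon response element, a pair of GAAA blocks with any 2 bases between them (on the other strand TTTC blocks), for TTCNNNGAA, the site of a STAT dimer, and by name for the NF-kB consensus and the p53 decamer. The 4 stretches below are shown because they hold a match to one of the first 3 motifs in genes that rose with olaparib in at least one line. Each runs 5′ to 3′ on the strand of the gene, from 250 bases before the start to 10 bases into the transcript, and capitals mark the match.
TNFSF10, chr3:172523421-172523680, reverse strand: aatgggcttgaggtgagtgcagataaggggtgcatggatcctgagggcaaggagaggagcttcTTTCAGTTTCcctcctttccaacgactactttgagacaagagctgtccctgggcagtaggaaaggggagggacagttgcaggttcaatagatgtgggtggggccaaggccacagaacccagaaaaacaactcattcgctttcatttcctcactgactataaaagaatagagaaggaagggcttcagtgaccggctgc
CASP8, chr2:201233213-201233472, forward strand: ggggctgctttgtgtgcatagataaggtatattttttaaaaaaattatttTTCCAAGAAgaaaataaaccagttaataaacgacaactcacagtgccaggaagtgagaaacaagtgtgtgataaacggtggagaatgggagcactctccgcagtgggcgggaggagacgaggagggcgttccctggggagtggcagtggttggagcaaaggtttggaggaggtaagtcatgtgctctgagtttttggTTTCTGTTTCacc
CFLAR, chr2:201118466-201118725, forward strand: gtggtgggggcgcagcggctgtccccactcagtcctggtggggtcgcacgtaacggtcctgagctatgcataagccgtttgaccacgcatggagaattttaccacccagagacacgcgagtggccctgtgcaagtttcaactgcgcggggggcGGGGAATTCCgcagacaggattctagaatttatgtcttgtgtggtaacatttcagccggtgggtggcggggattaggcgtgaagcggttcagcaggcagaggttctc
FAS, chr10:88991181-88991440, forward strand: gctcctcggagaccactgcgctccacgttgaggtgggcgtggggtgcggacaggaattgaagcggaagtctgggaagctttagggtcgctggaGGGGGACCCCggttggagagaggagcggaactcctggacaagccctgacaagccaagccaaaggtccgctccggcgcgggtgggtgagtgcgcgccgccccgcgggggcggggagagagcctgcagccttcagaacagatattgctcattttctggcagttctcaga

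The interferon element core was found in the TNFSF10 window, as TTTCAGTTTC at bases -187 to -178 from the start, and in 1 of the 3 CASP8 windows, as TTTCTGTTTC across the start from base -3 to base 7. These are 2 of the 12 windows, and 3.58% of all 35095 RefSeq windows held the motif. The same CASP8 window held the STAT site TTCCAAGAA at -200 to -192, a motif present in 7.66% of all windows. The NF-kB consensus matched 1 of the 4 CFLAR windows, as GGGGAATTCC at -97 to -88, and 1 of the 3 FAS windows, as GGGGGACCCC at -157 to -148, against 5.90% of all windows. The p53 decamer was found in that FAS window and in another CASP8 window, against 6.63% of all windows. The CASP4 window held none of the 4 motifs. A match describes the letters only, and no binding was measured.

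To see what olaparib did to these genes in each line, olaparib and DMSO libraries were compared with edgeR's quasi-likelihood test over all genes. A gene passed the test at an adjusted p below 0.1, and was called differentially expressed, by the limits of the study, when it also changed more than 2-fold with a mean normalized count above 10. In OVCAR3 the 4 genes at the cell surface, FAS, TNFSF10, TNFRSF10A and TNFRSF10B, were all higher with olaparib, whereas CFLAR and the 3 caspases did not pass. Thus 4 of the 8 genes passed in the higher direction, where 15.5% of all genes tested did, and 0 in the lower direction, where 16% did. FAS and TNFSF10 were differentially expressed, 2 of 8 beside 2.9% of all genes, and none as lower, beside 2.33%. In UWB1.289, TNFSF10, CASP8 and CFLAR rose, 3 of the 7 genes tested, where 7.77% of all genes passed in that direction, none passed as lower, where 6.1% did, and TNFSF10 alone was differentially expressed, where 1.93% of all genes were higher and 0.282% lower by these limits. The median log2 fold change of the genes tested was 0.64 in OVCAR3 and 0.32 in UWB1.289, with medians of -0.01 and 0.00 over all genes. CASP1 was too low to enter the test in UWB1.289. These fits did not pair libraries by replicate number. With that number as a block, TNFRSF10A and CASP4 also passed in UWB1.289, where 1269 genes in all passed as higher in place of 990.

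TNFSF10, the ligand, rose in both lines. Its level in OVCAR3 was 7.75, 7.69, 7.94 and 4.43 CPM in DMSO replicates 1 to 4 and 12.7, 16.8, 15.2 and 15.3 CPM with olaparib. In UWB1.289 it was 12.6, 20.6, 18.3 and 17.1 CPM with DMSO and 64.9, 55.4, 58.4 and 60.8 CPM with olaparib. The groups were apart within each line, and the OVCAR3 olaparib libraries lay at about the level of untreated UWB1.289, with overlapping ranges. The log2 fold change was 1.12 in OVCAR3 (SE 0.188, edgeR adjusted p = 0.000177) and 1.81 in UWB1.289 (SE 0.127, edgeR adjusted p = 6.47e-10), that is 2.17-fold and 3.50-fold. Without OVCAR3 DMSO replicate 4, the low library, the OVCAR3 value was 0.94, under the 2-fold limit of differential expression but past the test (edgeR adjusted p = 0.000948).

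FAS, the receptor of Fas ligand, rose in OVCAR3. Its level was 1.65, 2.79, 2.31 and 2.29 CPM in the DMSO replicates, only 10 to 16 reads per library, and 8.99, 7.01, 9.94 and 8.61 CPM with olaparib. The groups were well apart, with a log2 fold change of 1.93 with an SE of 0.242 (edgeR adjusted p = 6.65e-06), or 3.82-fold. UWB1.289 held more FAS RNA than either OVCAR3 group, at 15.3, 11.2, 13.7 and 12.5 CPM with DMSO and 14.3, 18.8, 12.3 and 13.3 CPM with olaparib. There the groups overlapped, and the log2 fold change was 0.15 (95% interval -0.19 to 0.50, edgeR adjusted p = 0.625). FASLG, the gene of Fas ligand, had 1 read in all 16 libraries together.

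TNFRSF10A and TNFRSF10B, which encode the 2 TRAIL receptors that carry a death domain, rose in OVCAR3 by less than 2-fold. TNFRSF10A stood at 40.6, 42.6, 41.6 and 33.2 CPM with DMSO and at 59.8, 58.4, 58.1 and 81.3 CPM with olaparib, and the groups did not overlap (log2 fold change 0.71, SE 0.119, edgeR adjusted p = 0.000159). TNFRSF10B stood at 39.7, 45.6, 37.7 and 35.0 CPM with DMSO and at 69.9, 55.6, 67.2 and 39.2 CPM with olaparib, where replicate 4 lay inside the DMSO range (log2 fold change 0.56, SE 0.143, edgeR adjusted p = 0.00698). Replicate 4 with olaparib was thus the highest of its group for TNFRSF10A and the lowest for TNFRSF10B. Without it the changes were 0.58 (edgeR adjusted p = 2.82e-05) and 0.71 (edgeR adjusted p = 1.58e-06).

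In UWB1.289, TNFRSF10A was at 15.3, 22.3, 26.8 and 30.04 CPM with DMSO and at 29.0, 32.1, 32.2 and 27.4 CPM with olaparib, a log2 fold change of 0.35 (95% interval 0.03 to 0.67) that did not pass (edgeR adjusted p = 0.167). TNFRSF10B was at 13.8, 13.5, 9.24 and 13.04 CPM with DMSO and at 15.5, 13.7, 16.2 and 16.5 CPM with olaparib, a value of 0.32 (95% interval -0.01 to 0.65, edgeR adjusted p = 0.229). The ranges overlapped for both receptors. With the replicate number as a block TNFRSF10A passed, at 0.37 (edgeR adjusted p = 0.0761), and it also passed without DMSO replicate 4, its highest DMSO library, at 0.49 (edgeR adjusted p = 0.0723). TNFRSF10D, a TRAIL receptor without a working death domain, rose in OVCAR3 by 0.39 (edgeR adjusted p = 0.0659) from 11.5 to 15.0 CPM to 15.5 to 21.1 CPM. That call was lost without olaparib replicate 4, at 0.28 (edgeR adjusted p = 0.206), and without DMSO replicate 2 or 3, at 0.34 and 0.36 (edgeR adjusted p = 0.151 and 0.154). It was also lost with DESeq2 (adjusted p = 0.112) and with all 16 libraries in the edgeR fit (adjusted p = 0.146). TNFRSF10C, the other decoy, had at most 2 reads in any library.

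**Figure D1:**
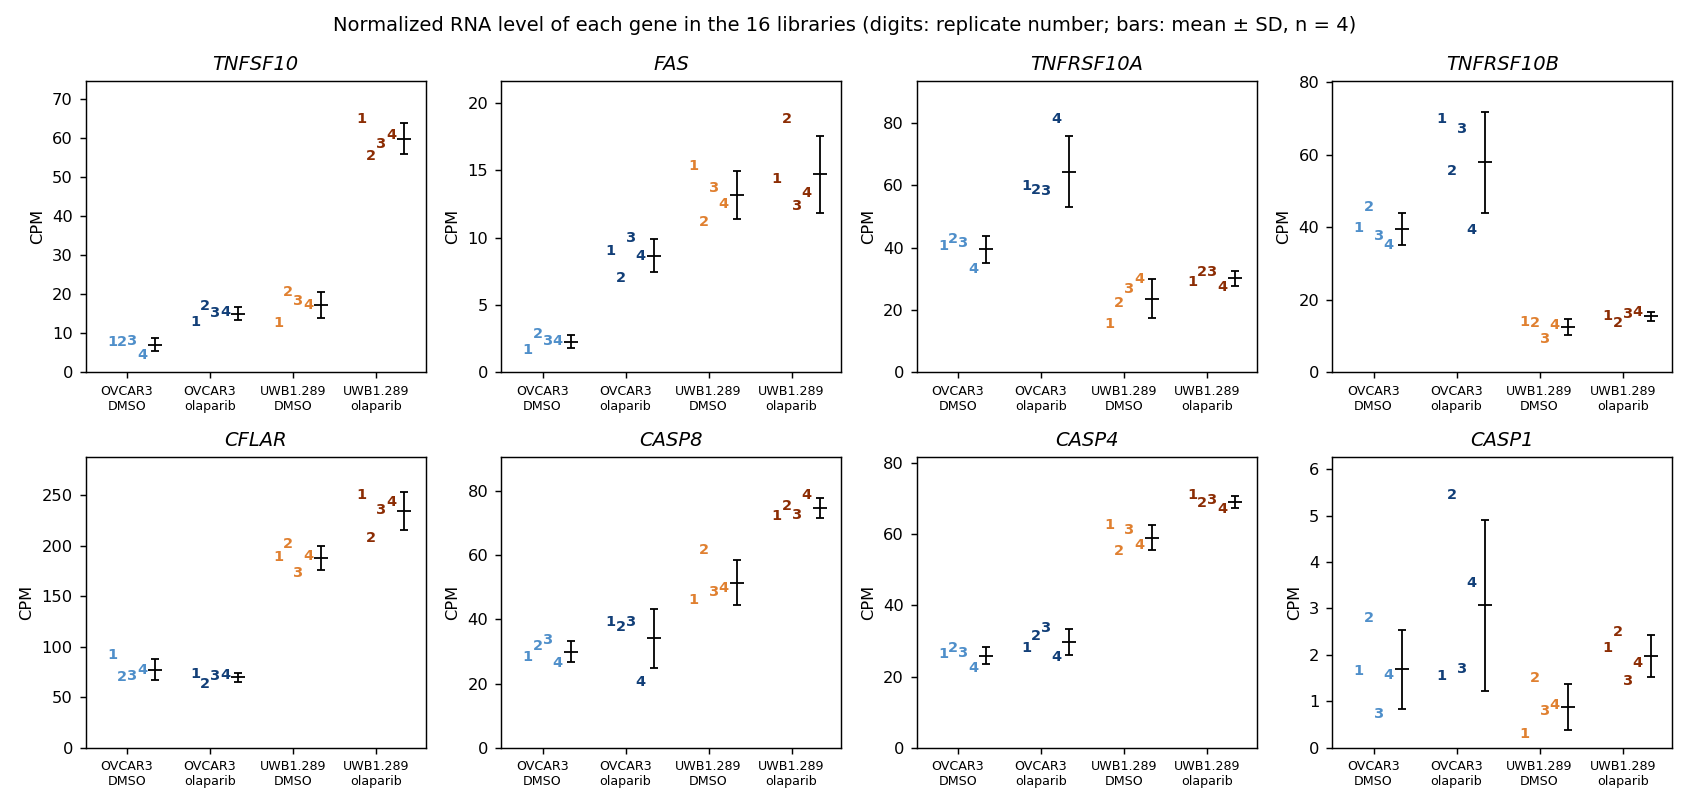
TMM-normalized CPM (vertical axes, each starting at 0 with its own scale) of the 8 genes in the 4 groups of line and treatment, with each library drawn as its replicate number and bars giving mean ± SD (n = 4). TNFSF10 with olaparib in UWB1.289, at 55.4 to 64.9 CPM, lies above every other group, while FAS is lowest in OVCAR3 with DMSO, at 1.65 to 2.79 CPM, and in OVCAR3 with olaparib replicate 4 is the farthest library for TNFRSF10A, TNFRSF10B and CASP8.

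CFLAR, which encodes the caspase-8 inhibitor cFLIP, was at 91.8, 70.0, 71.4 and 76.7 CPM with DMSO and at 73.3, 63.4, 71.1 and 71.8 CPM with olaparib in OVCAR3. These ranges overlapped, and the log2 fold change was -0.14 (95% interval -0.34 to 0.06, edgeR adjusted p = 0.299). In UWB1.289 it was at 188.6, 201.8, 172.8 and 190.1 CPM with DMSO and at 250.7, 208.0, 235.9 and 243.2 CPM with olaparib. There the 4 treated libraries exceeded the 4 controls, a rise of 0.32 (SE 0.0814, edgeR adjusted p = 0.0143), or 1.25-fold.

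CASP8, the initiator caspase of the receptor complex, was at 46.0, 61.6, 48.4 and 49.9 CPM with DMSO and at 72.3, 75.3, 72.5 and 78.9 CPM with olaparib in UWB1.289. The groups were apart, and the log2 fold change was 0.54 with an SE of 0.101 (edgeR adjusted p = 0.000972), or 1.46-fold. In OVCAR3 it was at 28.2, 31.6, 33.7 and 26.5 CPM with DMSO and at 39.1, 37.7, 39.2 and 20.4 CPM with olaparib. The first 3 olaparib libraries lay above the DMSO range and replicate 4 below it. With all 8 libraries the value was 0.19 (95% interval -0.15 to 0.52, edgeR adjusted p = 0.447), and without olaparib replicate 4 it was 0.37 (edgeR adjusted p = 0.0130).

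CASP4, the human sensor of intracellular lipopolysaccharide, was at 62.6, 55.3, 61.3 and 56.9 CPM with DMSO and at 71.2, 68.7, 69.8 and 67.1 CPM with olaparib in UWB1.289. Its groups did not overlap, but the difference of 0.23 (95% interval 0.05 to 0.42) missed the threshold over all genes (edgeR adjusted p = 0.114) and passed it with the replicate block (edgeR adjusted p = 0.0718). With TNFSF10, CFLAR and CASP8 this makes 4 of 7 genes whose UWB1.289 olaparib libraries all lay above the DMSO libraries, as did those of 7.7% of all genes tested. In OVCAR3, where 3 of the 8 genes (FAS, TNFSF10 and TNFRSF10A) and 12.4% of all genes were apart in that direction, CASP4 was at 26.4, 27.9, 26.6 and 22.5 CPM with DMSO and at 28.1, 31.5, 33.7 and 25.4 CPM with olaparib. The change was 0.20 (95% interval -0.05 to 0.46, edgeR adjusted p = 0.246), and 0.27 without olaparib replicate 4 (edgeR adjusted p = 0.0966).

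CASP1, the caspase of the canonical inflammasomes, was near the limit of detection. In OVCAR3 it had 5 to 16 reads per library with DMSO, at 1.65, 2.79, 0.72 and 1.57 CPM, and 10 to 35 reads with olaparib, at 1.55, 5.45, 1.70 and 3.55 CPM. The ranges overlapped, and the log2 fold change of 0.88 had a 95% interval from -0.03 to 1.80 (edgeR adjusted p = 0.156). It passed when DMSO replicate 2 was left out, at 1.22 (edgeR adjusted p = 0.0788), without olaparib replicate 1, at 1.10 (edgeR adjusted p = 0.0916), or without olaparib replicate 3, at 1.10 (edgeR adjusted p = 0.0856). In UWB1.289 it had 2 to 9 reads with DMSO, at 0.30, 1.498, 0.80 and 0.92 CPM, and 9 to 14 reads with olaparib, at 2.14, 2.48, 1.44 and 1.83 CPM. At this depth no difference was tested there.

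Whether the response differed between the lines was tested as an interaction over all 16 libraries, given as the effect in UWB1.289 minus that in OVCAR3. FAS, TNFSF10 and CFLAR differed, 2 of 8 genes in the higher direction, where 5.09% of all genes passed, and 1 in the lower direction, where 5.83% did. The effect on FAS was lower in UWB1.289 by 1.78 on the log2 scale, a difference of -1.78 (SE 0.284, edgeR adjusted p = 8.28e-05), and FAS was the only one of the 8 past the 2-fold limit, as were 1.66% of all genes in that direction and 2% in the other. For CFLAR the difference was 0.46 (SE 0.125, edgeR adjusted p = 0.0187). For TNFSF10 it was 0.69 (SE 0.225, edgeR adjusted p = 0.0598), and this call was lost, at adjusted p from 0.105 to 0.150, when any 1 of 6 libraries was left out. These were UWB1.289 DMSO replicate 1, UWB1.289 olaparib replicate 4, OVCAR3 DMSO replicates 1, 2 and 3, and OVCAR3 olaparib replicate 1, without which the difference was 0.56, 0.65, 0.63, 0.64, 0.61 and 0.62.

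For the other 5 genes a difference between the lines was not shown. The intervals were -0.79 to 0.06 for TNFRSF10A, -0.69 to 0.22 for TNFRSF10B, -0.05 to 0.77 for CASP8, -0.26 to 0.32 for CASP4 and -1.06 to 1.62 for CASP1, with edgeR adjusted p of 0.336, 0.609, 0.313, 0.955 and 0.876. Of these, CASP4 had the narrowest interval. With each library left out in turn, the difference ran from 0.17 to 0.45 for CASP8 (edgeR adjusted p = 0.208 to 0.565). It ran from -0.52 to -0.22 for TNFRSF10A and from -0.39 to -0.14 for TNFRSF10B. Without UWB1.289 DMSO replicate 1, the lowest library for TNFRSF10A, its difference was -0.52 and passed (edgeR adjusted p = 0.0914).

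**Figure D2:**
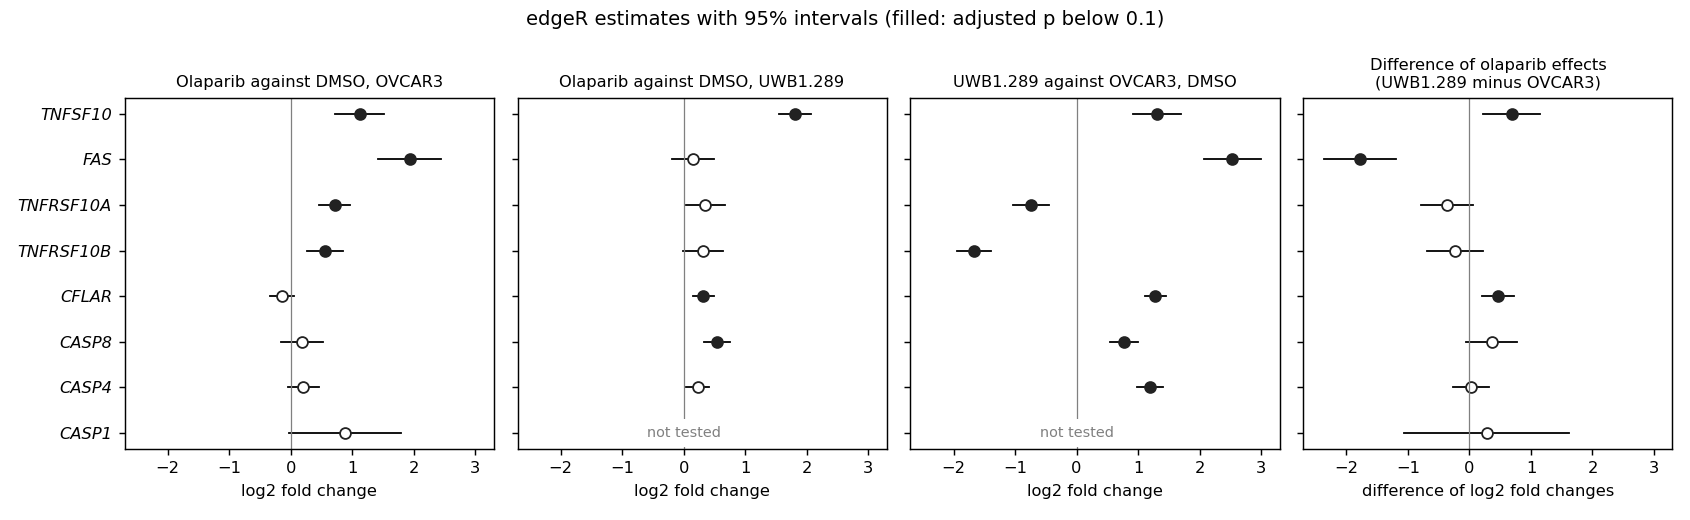
Log2 fold change (horizontal axis) of each gene in the 4 comparisons, with 95% intervals from edgeR, filled where the adjusted p was below 0.1. In OVCAR3 the filled points are TNFSF10, FAS, TNFRSF10A and TNFRSF10B, in UWB1.289 they are TNFSF10, CFLAR and CASP8, and the olaparib effect differs most between the lines for FAS, at -1.78.

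The lines themselves were compared on the DMSO libraries, where 39.8% of all genes tested passed as higher in UWB1.289 and 40.1% as lower. All 7 tested genes passed, 5 as higher and 2 as lower in UWB1.289, so in this comparison a pass is the usual result. Both TRAIL death receptors were lower in UWB1.289, TNFRSF10A with a difference of -0.74 in log2 units (SE 0.142, edgeR adjusted p = 2.77e-05) and TNFRSF10B with -1.67 (SE 0.135, edgeR adjusted p = 2.55e-12). FAS was higher by 2.53 (SE 0.228, edgeR adjusted p = 2.87e-11) and TNFSF10 by 1.30 (SE 0.192, edgeR adjusted p = 4.55e-07). CFLAR was higher by 1.28 (SE 0.0848), CASP4 by 1.19 (SE 0.101) and CASP8 by 0.78 (SE 0.110), with edgeR adjusted p of 2.47e-14, 8.13e-12 and 2.47e-07. Past the 2-fold limit were 4 genes as higher (FAS, TNFSF10, CFLAR and CASP4) and TNFRSF10B as lower, beside 18.7% and 19.7% of all genes.

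Across the 4 groups the order of mean levels was the same for FAS, TNFSF10, CASP4 and CASP8, from OVCAR3 with DMSO over OVCAR3 with olaparib and UWB1.289 with DMSO to UWB1.289 with olaparib. The highest group stood above the lowest by 6.50-fold for FAS, 8.61-fold for TNFSF10, 2.68-fold for CASP4 and 2.49-fold for CASP8. Neighbouring groups overlapped between the 2 UWB1.289 groups for FAS, between the middle groups for TNFSF10, and between the 2 OVCAR3 groups for both caspases. TNFRSF10A and TNFRSF10B ran in another order, from UWB1.289 with DMSO over UWB1.289 with olaparib and OVCAR3 with DMSO to OVCAR3 with olaparib, spanning 2.73-fold and 4.67-fold. For both receptors the UWB1.289 groups overlapped, and for TNFRSF10B so did the OVCAR3 groups. CFLAR spanned 3.35-fold, with the OVCAR3 groups overlapping at the low end, and for CASP1 every neighbour overlapped.

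A pair of ratios within each library set cFLIP against caspase-8 and DR5 against DR4, since the members of each pair share a complex or a ligand. They are log2 ratios of CPM with a prior count of 2, a description with no test, and their absolute size also depends on how well each transcript is primed. CFLAR to CASP8 was 1.36 ± 0.30 with DMSO and 1.08 ± 0.49 with olaparib in OVCAR3, and 1.87 ± 0.14 and 1.64 ± 0.14 in UWB1.289 (mean ± SD, n = 4). In OVCAR3 the olaparib libraries were split, since replicate 4 was at 1.80 and the other 3 at 0.75 to 0.90, below all 4 DMSO libraries, which ran from 1.08 to 1.69. Without replicate 4, a choice made after the data were seen, their mean was 0.83 ± 0.08 (SD, n = 3). In UWB1.289 the treated and untreated ranges, 1.46 to 1.79 and 1.71 to 2.03, overlapped. Between libraries of the same number the ratio was lower with olaparib in all 4, at 2.03 and 1.79, 1.71 and 1.46, 1.83 and 1.70, and 1.92 and 1.62 with DMSO and olaparib.

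TNFRSF10B to TNFRSF10A was 0.00 ± 0.11 with DMSO in OVCAR3 and -0.17 ± 0.60 with olaparib, where replicate 4 was at -1.05 and the other 3 at 0.22, -0.07 and 0.21. Without replicate 4 the olaparib mean was 0.12 ± 0.17 (SD, n = 3), so the sign of the mean turned on that library. In UWB1.289 it was -0.89 ± 0.59 with DMSO and -0.95 ± 0.21 with olaparib. The UWB1.289 DMSO libraries were widely spread, from -1.504 to -0.146, yet all lay below the lowest OVCAR3 DMSO library, at -0.141. Relative to DR4, then, DR5 RNA was lower in untreated UWB1.289 than in untreated OVCAR3 in every library, by a margin that was close to nil in one of them.

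**Figure D3:**
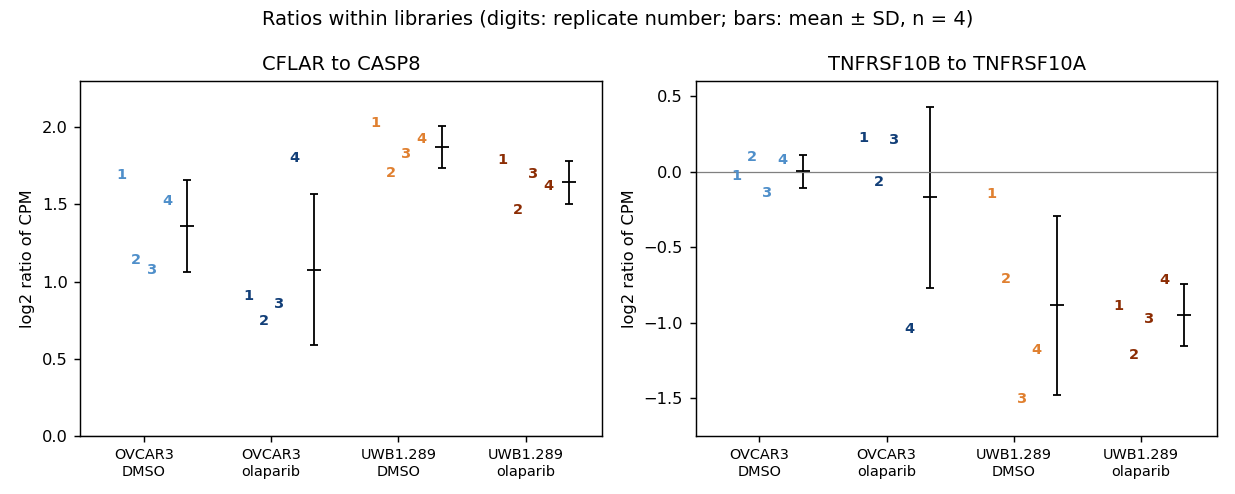
Log2 ratio of CPM within each library (vertical axis) for CFLAR to CASP8, left, and TNFRSF10B to TNFRSF10A, right, by group, with digits for the replicates and bars for mean ± SD (n = 4). OVCAR3 with olaparib replicate 4 stands apart in both, at 1.80 and -1.05.

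The rest of the pathway was read from 4 lists. Their counts stand beside 15.5% of all genes tested that passed as higher and 16% as lower in OVCAR3, and 7.77% and 6.1% in UWB1.289. The median log2 fold changes of all genes tested were -0.01 and 0.00. Of the other death receptors, ligands and decoys, 14 genes, 8 were tested in OVCAR3, where 5 passed as higher and 1 as lower, and 9 in UWB1.289, where 3 passed as higher. The list's medians were 0.32 and 0.19. TNF, the founding cytokine of the family, rose in both lines, by 3.79 in OVCAR3 (edgeR adjusted p = 4.37e-08), where DMSO libraries held 0.286 to 1.01 CPM and olaparib libraries 7.47 to 10.4 CPM, and by 1.73 in UWB1.289 (edgeR adjusted p = 1.71e-07), from 4.50 to 8.28 CPM to 19.8 to 24.5 CPM. TNFRSF1B, the second TNF receptor, rose by 1.93 in OVCAR3 and had at most 4 reads per library in UWB1.289. The 1 lower gene was TNFRSF1A, the first TNF receptor, named after its values were seen, at -0.38 in OVCAR3. That call held in all 8 fits that each left out a library (edgeR adjusted p = 0.00540 to 0.0509). TNFRSF11B, osteoprotegerin, a soluble receptor that can bind TRAIL, rose by 1.88 in UWB1.289. It was not among the genes that passed in OVCAR3 or in the interaction. TNFRSF21, known as death receptor 6, rose in UWB1.289 by 0.36 (edgeR adjusted p = 0.0633) and in OVCAR3 by 0.29 (edgeR adjusted p = 0.0398). Its call in UWB1.289 was lost without DMSO replicate 1 or 2 or olaparib replicate 1 or 3, at 0.27 to 0.33 (edgeR adjusted p = 0.112 to 0.213), and that in OVCAR3 without DMSO replicate 3 or 4, at 0.24 each (edgeR adjusted p = 0.138 and 0.125).

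Of the 17 adaptors and partners of the receptor complex, 15 were tested in each line, 4 passed as higher in OVCAR3 and 5 in UWB1.289, and 0 as lower, with medians of 0.13 and 0.27. BIRC3, the ubiquitin ligase cIAP2, rose by 3.51 in OVCAR3, from at most 0.699 CPM to 4.92 to 6.25 CPM, and by 1.98 in UWB1.289, from 25.6 to 35.0 CPM to 108.3 to 137.3 CPM. TNFAIP3, the NF-kB inhibitor A20, rose by 2.67 and 1.97. TRAF2, which brings cIAP proteins to the receptors, rose by 0.77 and 0.56. FADD, the adaptor itself, was at 34.9 to 50.1 CPM with DMSO and 42.6 to 50.3 CPM with olaparib in OVCAR3, and at 67.9 to 74.9 and 64.2 to 85.1 CPM in UWB1.289, so its ranges overlapped in both lines. FADD was named after its values were seen.

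Among the 16 other apoptotic caspases and apoptosome genes, 14 were tested in each line, 3 passed as higher in OVCAR3, and 1 as higher and 1 as lower in UWB1.289, with medians of -0.02 and 0.10. In OVCAR3 these were DFFA, the inhibitor of the apoptotic nuclease, at 0.43, BID, which links caspase-8 to mitochondria, at 0.30, and BIRC5, survivin, at 0.26. In UWB1.289, BIRC5 rose by 0.27 and XIAP, a direct caspase inhibitor, fell by 0.22 on the log2 scale (edgeR adjusted p = 0.0796). Among the fits that each left out a library, the call of XIAP held only without DMSO replicate 1 or olaparib replicate 2. It was lost when any one of the other 6 libraries was left out (edgeR adjusted p = 0.120 to 0.189) and with no low-count filter (edgeR adjusted p = 0.113). That of BIRC5 in UWB1.289 was lost without DMSO replicate 1 or 3 or olaparib replicate 4 (edgeR adjusted p = 0.102 to 0.116).

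Of the 25 inflammasome and pyroptosis genes, 11 were tested in OVCAR3, where 6 passed as higher and 1 as lower, and 14 in UWB1.289, where 6 passed as higher, with medians of 0.48 and 0.16. The lower gene was CARD8, an inflammasome sensor named after its values were seen, at -0.54 (edgeR adjusted p = 0.0895). Its call was lost with DESeq2 (adjusted p = 0.171), with no low-count filter (edgeR adjusted p = 0.114) and without any one library other than olaparib replicate 4, at -0.59 to -0.39 (edgeR adjusted p up to 0.253). GBP5 and GBP2, which encode guanylate-binding proteins, rose in OVCAR3 by 1.67 and 1.02 and in UWB1.289 by 2.42 and 1.20. GBP1, of the same family, rose in UWB1.289 by 2.20, from 21.3 to 38.1 CPM to 138.1 to 163.4 CPM, and in OVCAR3 by 0.76 (edgeR adjusted p = 0.000102), from 29.2 to 40.3 CPM to 53.2 to 74.6 CPM. IFI16, a DNA sensor, rose in UWB1.289 by 1.83, and IL1B and IL1A, cytokines of the interleukin-1 family, rose in that line by 1.42 and 1.07. None of these was among the genes that passed in OVCAR3, where fewer of the list were tested, or in the interaction. A response particular to UWB1.289 was thus not shown for them. IL18, a substrate of caspase-1, rose in OVCAR3 by 0.93 (edgeR adjusted p = 0.0289), a call lost with DESeq2 (adjusted p = 0.172) and without DMSO replicate 1 or olaparib replicate 2, at 0.75 and 0.76 (edgeR adjusted p = 0.108 and 0.116). CASP5, CASP12, CARD17 and CARD18 had no count in any library.

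Differences between the lines past the 2-fold limit were found for 3 list genes, TNF at -2.06 (edgeR adjusted p = 0.000543), BIRC3 at -1.53 (edgeR adjusted p = 0.0142) and GBP1 at 1.44 (edgeR adjusted p = 5.12e-06), again as UWB1.289 minus OVCAR3. TNF and BIRC3 had the same sign as FAS, and GBP1 the same sign as TNFSF10, but a shared sign alone says little. For TNF and BIRC3 the levels in OVCAR3 with DMSO, given above, were near the floor, which limits these differences.

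**Figure D4:**
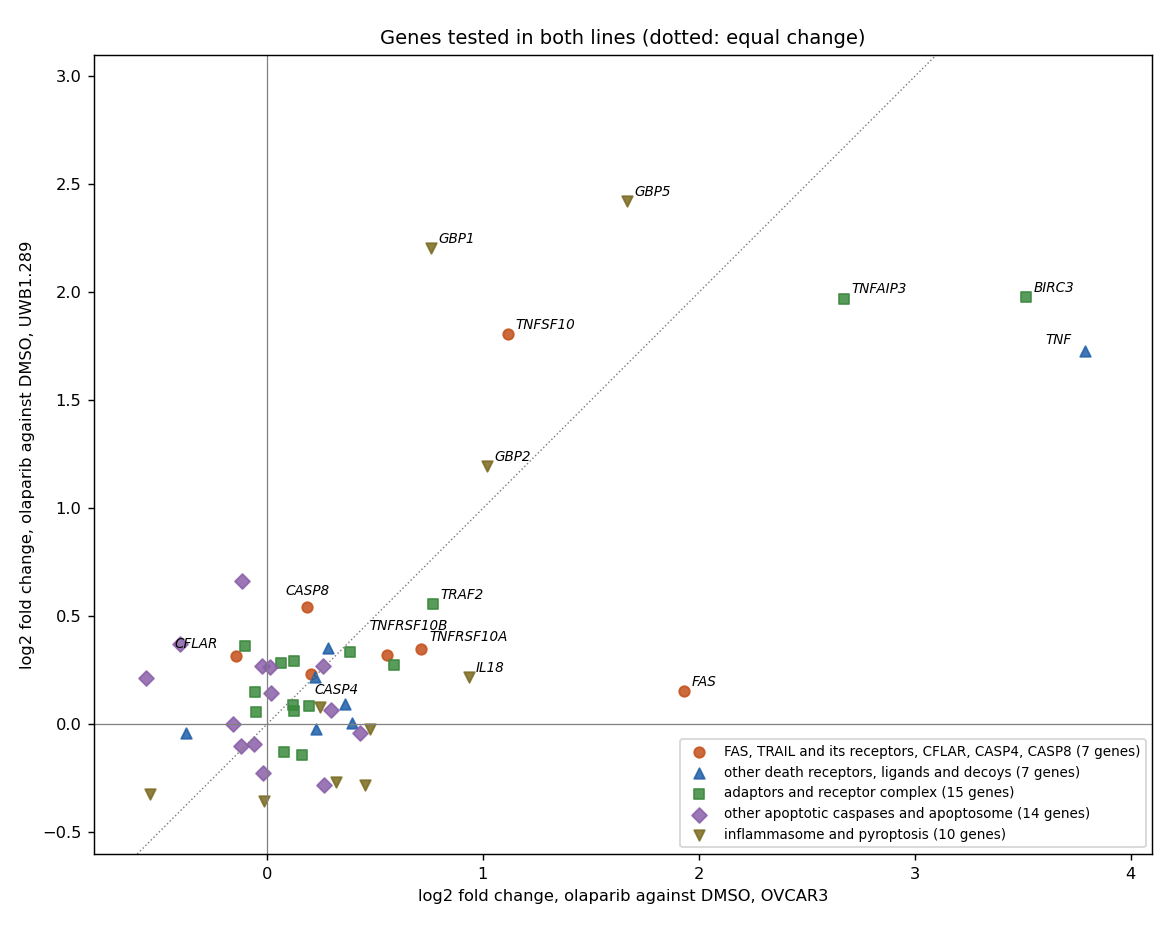
Log2 fold change with olaparib in OVCAR3 (horizontal axis) and in UWB1.289 (vertical axis) for the genes of the pathway tested in both lines, with a symbol for each list and a dotted line where both are equal. FAS lies far to the right, at 1.93 and 0.15, TNFSF10 above the line, at 1.12 and 1.81, and TNF, BIRC3 and TNFAIP3 furthest to the right.

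For each of the 8 genes, the 2 whose log2 CPM followed it most closely over the 16 libraries are given as a description, since all points share libraries and the lines differ in most genes. TNFSF10 was followed by HELZ2 and OAS3, with Pearson's r of 0.977 and 0.976, while 5.04% of the 14242 genes compared had an r above 0.8 with it. For FAS they were TMOD1 and DUSP5 (both 0.974), for TNFRSF10A JAK1 (0.949) and RNF19A (0.943), and for TNFRSF10B MAFG and ANKRD34B (both 0.979). CFLAR was nearest to NAT8L (0.991) and STC2 (0.990), CASP4 to CCDC86 (0.988) and ASCC1 (0.987), and CASP8 to MYC (0.957) and NECAP2 (0.950). An r above 0.8 was common for CFLAR, with 25.7% of genes, and for CASP4, with 25.9%. CASP1, at its low counts, reached 0.845 with SNORD3A and 0.823 with CBR3.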

How the data were processed

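The authors deposited raw counts per gene, made with BBDuk for trimming, STAR 2.7.9a for alignment to hg38 and featureCounts 2.0.0 with GENCODE release 38. Versions come from the submitters' processing notes. The treatment of strand, multiple matches and overlapping genes is not given in the sources used here. Groups were taken from the sample labels.

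Counts were normalized by TMM and tested in R 4.3.3 with edgeR 4.0.16 (filterByExpr, quasi-likelihood F test), with Benjamini-Hochberg adjustment over all genes tested, 13031 in OVCAR3, 12748 in UWB1.289, 13366 between the DMSO groups and 14243 for the interaction. Each SE was derived from the log2 fold change and its F statistic. CPM values use TMM factors over 16 libraries. The study used DESeq2 with the same limits. DESeq2 1.42.0, its size factors, no low-count filter, an adjusted p below 0.05, a mean count above 50, all 16 libraries, a replicate block and leaving out each library were alternatives. Scripts were tested on simulated data. The 24 within-group pairs of libraries held no duplicate (chi-square per gene 3.03 or more).

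The main fits hold no replicate block in either line. In UWB1.289, DMSO and olaparib libraries with the same number deviated together (correlations 0.159 to 0.278 over 7488 genes with a mean count above 100). The main values there are unpaired all the same, which leaves this shared deviation out of the fit. Values from the alternative fit with the numbers as pairs stand beside results whose call they change. The labels number the replicates but do not say that equal numbers are pairs, so the pairing comes from the data. Over all 14243 genes the correlations in UWB1.289 were 0.0557 to 0.0973.

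Members, lists and motifs were chosen with earlier results of these data known. Named were all 8 genes, list genes differentially expressed in an olaparib comparison or the interaction, the 3 largest passing changes per list and line, the 2 most similar genes and genes with a count that overlap the 8. Coordinates come from GENCODE release 44, and start-site windows from RefSeq. Some genes of the lists are counted but not reported by name here.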

Additional observations from a re-analysis of the deposited data

Results flagged for a closer look

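Of 40 groups of 4 libraries examined, 4 held a library far from the others by Dixon's limit, and chance gives about 1 in 20 groups. The groups are not independent, since the ratios are built from the same genes. OVCAR3 with olaparib, replicate 4, gave 3 of the 4, and its flags for CASP8 and for CFLAR to CASP8 share the CASP8 value. It had TNFRSF10A at 81.3 CPM (58.1 to 59.8 in the other 3), CASP8 at 20.4 CPM (37.7 to 39.2) and a log2 ratio of CFLAR to CASP8 of 1.80 (0.75 to 0.90). Its total of 7152552 counts and mitochondrial share of 12.0% lay within the range of all libraries (10.4% to 13.7% for the share). OVCAR3 with DMSO, replicate 4, had TNFSF10 at 4.43 CPM (7.69 to 7.94 in the other 3).

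The olaparib effect differed between the lines by edgeR's interaction test for 3 of the 8 genes, as UWB1.289 minus OVCAR3, FAS at -1.78, TNFSF10 at 0.69 and CFLAR at 0.46. It also differed for 8 genes of the pathway lists, all of which are given. These were TNF at -2.06, BIRC3 at -1.53, TNFAIP3 at -0.70, NINJ1 at -0.73, DFFA at -0.47, RBCK1 at 0.47, GBP1 at 1.44 and GBP5 at 0.75. GBP5 (edgeR adjusted p = 0.0990) lost its call with DESeq2 (adjusted p = 0.108), DESeq2 size factors (0.105) and no low-count filter (0.157), and in 11 of the 16 fits that each left out a library, at 0.59 to 0.81 (edgeR adjusted p up to 0.254). RBCK1 lost it without OVCAR3 DMSO replicate 3 or 4 or OVCAR3 olaparib replicate 2, at 0.40 to 0.44 (edgeR adjusted p = 0.107 to 0.135).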

How the results depend on the processing

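The log2 fold changes of the 8 genes kept direction and side of the threshold in 106 of 112 alternative values in OVCAR3, 95 of 98 in UWB1.289, 98 of 98 between the DMSO groups and 154 of 168 for the interaction. In OVCAR3 a mean count above 50 left 1 gene differentially expressed (FAS has fewer counts), and leaving out a library gave 1 to 3, with 1 without DMSO replicate 4, and 4 to 6 genes past the test. In the interaction, an adjusted p below 0.05 left 1 gene higher, and leaving out a library gave 1 to 2 higher and 1 to 2 lower. The interaction of CASP4, near 0 throughout, changed sign to -0.0077 with no low-count filter, and to -0.0012, -0.0090 and -0.041 without UWB1.289 DMSO replicate 2, OVCAR3 DMSO replicate 2 and OVCAR3 olaparib replicate 4. That of CASP1 turned to -0.0029 without UWB1.289 DMSO replicate 1 and -0.056 without OVCAR3 DMSO replicate 2, and the cause was not tested. Over the libraries left out in turn, these differences ran from -0.041 to 0.096 for CASP4 and from -0.056 to 0.67 for CASP1.

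With the replicate block 5 genes passed in UWB1.289 in place of 3 (TNFRSF10A and CASP4 added), while higher passes over all genes there went from 990 to 1269. In OVCAR3 5 passed in place of 4 (CASP1, edgeR adjusted p 0.0962). Same-numbered OVCAR3 libraries correlated at 0.0441 to 0.174 over 7488 genes, and 4 of 8 libraries correlated best with their own number. Over all 14243 genes these correlations were 0.0252 to 0.0880, and 6 of 8 libraries did so, beside 7 of 8 in UWB1.289. The block changed no other call of the 8 genes. Between the DMSO groups, 3 genes were lower in place of 2 without UWB1.289 DMSO replicate 2 or OVCAR3 DMSO replicate 3. Over all genes, a mean count above 50 left 165 higher and 120 lower differentially expressed genes in OVCAR3 (main 378 and 304), 128 and 13 in UWB1.289 (246 and 36), 1637 and 1608 between the lines (2498 and 2629) and 155 and 142 in the interaction (285 and 236), and an adjusted p below 0.05 left 461 lower genes in UWB1.289 (778). Leaving out a library gave 494 to 865 lower genes there and 33 to 56 differentially expressed (main 36), moved most by DMSO replicate 2 and olaparib replicates 1 and 3. The pathway genes that passed kept direction throughout, and lost the threshold in 32 of 280 alternative values in OVCAR3, 22 of 224 in UWB1.289 and 18 of 168 for the interaction.

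Depth limits CASP1, with 35 reads or fewer in any library, and FAS in untreated OVCAR3, with 16 or fewer. Intervals from counts cover no error of priming or culture.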
